A study of Mus musculus with 4 samples.

Results

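The nuclear genes of oxidative phosphorylation other than the nuclear subunits of cytochrome *c* oxidase were followed through the testis of mice at postnatal day 15 (P15). They were chosen by symbol, as genes that begin with Nduf followed by a, b, c, s or v, with Uqcr or with Atp5, together with the 4 succinate dehydrogenase genes. Symbols that contain -ps were left out, and at least 20 UMIs (unique molecular identifiers, each 1 counted transcript molecule) were required over the 4 libraries. Subunit genes under other symbols were not followed. These rules gave 75 of the 32285 genes in the files: 38 named as complex I subunits, 8 complex I assembly factors, 4 subunits of complex II, 8 of complex III and 17 of ATP synthase. No difference between genotypes or cell types entered this rule.

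Oxidative phosphorylation is the step of respiration that makes most of the ATP of aerobic cells. Complex I takes electrons from NADH and complex II from succinate, complex III passes them on to cytochrome *c*, and the proton gradient built on the way drives ATP synthase. Most subunits are encoded in the nucleus and imported, while a small core is encoded by mitochondrial DNA. In the testis, spermatogonia lie on the blood side of the Sertoli cell barrier, and spermatocytes beyond it are known for their use of lactate and pyruvate supplied by Sertoli cells.

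Testis cells of 4 pups of the C57BL/6N strain, 2 wild type and 2 *Meioc*-null, were profiled by single-cell RNA sequencing, with 1 testis and 1 library from each. *Meioc* encodes a germ cell partner of the RNA-binding protein YTHDC2, and the null allele was *Meioc* tm1.1Dpc. Mice of both genotypes were also heterozygous for *Hspa2* tm1Dix and homozygous for *ROSA26-tdTomato* with its floxed stop intact, so the wild-type animals are wild type at *Meioc* alone. Each batch of library preparation was a littermate pair, 1 pup of each genotype, and replicates of the same number were taken as that pair. The comparison asks how the transcripts of germ cells differ without *Meioc* around the entry into meiosis.

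The 4 libraries held 11986 to 16486 barcodes and 158291903 to 190455307 UMIs, of which 5644 to 7505 cells per library were kept. Between 45 and 73 barcodes were shared by any 2 libraries, and 12 to 16 of these were kept in both. Germ cells of the wild type were divided into 11 clusters, and *Meioc*-null cells were placed on them. A class of cells found without *Meioc* alone, such as the mutant-only cluster that the study set apart, is therefore divided among these clusters. The clusters were rebuilt here, and cells may stand otherwise than in the study. Cluster 1 was undifferentiated spermatogonia-like, clusters 2 to 6 differentiating spermatogonia-like, clusters 8 to 10 early spermatocyte-like and cluster 11 pachytene spermatocyte-like. Cluster 7 scored highest on the differentiating markers but was led by *Stra8*, *Hist1h2aa* and *M1ap*, against that name, and was left unnamed. Cluster 11 held 376 and 537 wild-type cells and, by this placement, 0 *Meioc*-null cells, so genotypes were compared in clusters 1 to 10. In counting error alone, with cells taken as independent draws, the 0 allows up to 0.0593% and 0.0609% of the *Meioc*-null germ cells. This bound does not cover errors of placement or the spread between pups. The study, in its own clustering, assigned some *Meioc*-null cells to pachytene spermatocytes, so the 0 belongs to this placement. Other cells formed a Leydig-like cluster, a pair of Sertoli-like clusters, a peritubular myoid-like cluster and 2 unnamed clusters led by *Clec3b* and by *Gzmc*. *Meioc* itself checked nothing here, since tags at the 3′ end may lie outside the deletion: its level in cluster 7 was 629 and 690 CPM (UMI counts scaled to 1000000 per library and cluster) for wild type, against 664 and 637 CPM for the *Meioc*-null pups, and in cluster 9 it was 491 and 472 against 871 and 857 CPM.

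Summed over the 75 genes, the transcripts rose from undifferentiated spermatogonia to the last differentiating cluster, were lowest in early spermatocytes and were high again in pachytene spermatocytes. In wild-type replicates 1 and 2, the sum took 1.92% and 2.18% of all UMIs in cluster 1. It reached 2.80% and 3.06% in cluster 6, the highest of the germ cell clusters in both libraries. Cluster 8 stood at 1.88% in each, and cluster 9, the lowest germ cell cluster in both, at 1.73% and 1.79%. The sum was 1.95% and 2.02% for cluster 10 but 2.57% and 2.60% for the pachytene cluster 11. Clusters 2, 3, 4, 5 and 7 had means between 2.47% and 2.62% and overlapped one another, whereas clusters 8, 9 and 10 lay below all of these in both libraries. The clusters are drawn from the same cells, so no test was made between them. These are shares of a cell's transcripts, and the counts per cell followed another order: the median cell of cluster 1 held 515 and 564 UMIs of these genes, that of cluster 6 held 315 and 324, that of cluster 9 held 175 and 169, and that of cluster 11 held 774 and 642. Counts per cell move with the UMIs captured, whose medians were 11239 and 10463 in cluster 6 and 32350 and 25444 in cluster 11.

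**Figure D1:**
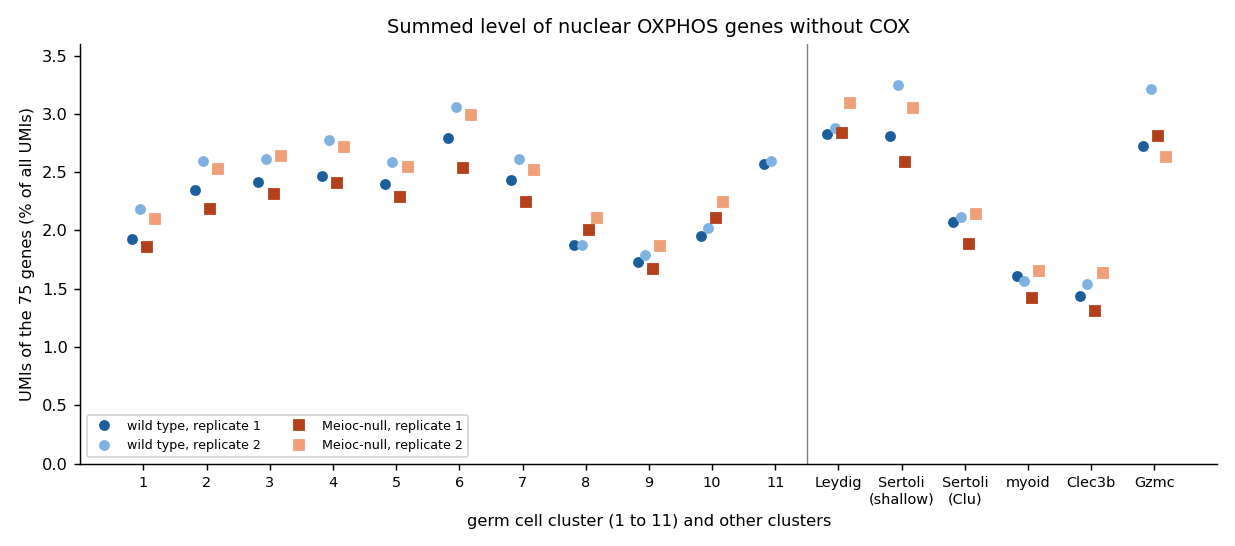
Summed UMIs of the 75 nuclear oxidative phosphorylation genes as a percent of all UMIs (vertical axis) in germ cell clusters 1 to 11 and in the other clusters (horizontal axis), with 1 point for each library. In wild type the germ cell values are highest in cluster 6 (2.80% and 3.06%) and lowest in cluster 9 (1.73% and 1.79%), and cluster 11 has wild-type points only.

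The replicate mattered to these sums. Replicate 2 was above replicate 1 in 11 of 11 wild-type germ cell clusters, by ratios of 1.002 to 1.134, and in 10 of 10 *Meioc*-null ones, by 1.054 to 1.179. Differences of this size between clusters can be hidden by the replicate. The counts of genes higher or lower between clusters, given below, set both libraries of one cluster against both of the other.

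The rise, the trough and the return were each seen in most of the 73 genes that reached 20 CPM in the clusters compared, read as both wild-type libraries of one cluster lying above or below both of the other. All 3 steps were found in 32 of the 73 (43.8%) and in 10.4% of 5855 genes, over clusters that the members' own sum had picked out. From cluster 1 to cluster 6, 49 genes were higher and 9 lower, where 49.1% and 36.5% of all genes were, and their median log2 ratio was 0.41 against 0.15 over all genes. From cluster 6 to cluster 9, 8 were higher and 55 lower, where 46.6% and 40.4% of all genes were, with a median of −0.73 against 0.08. From cluster 9 to cluster 11, 55 were higher and 14 lower, where 38.8% and 49.9% were, with a median of 0.80 against −0.19. End to end, cluster 11 against cluster 1, 45 were higher and 18 lower, where 46.2% and 44.2% were, with a median of 0.44 against 0.05.

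The complexes did not move to the same extent. Clusters 6 and 9 had been picked out by the members' own sum, and between them 40.4% of all genes were lower and 46.6% higher. ATP synthase fell furthest between clusters 6 and 9, with 14 of its 17 genes lower, none higher and a median log2 ratio of −1.14. Complex III followed with 6 of 8 lower and a median of −1.07, and complex I with 30 of 37 lower and a median of −0.67. Complex II, whose 4 genes serve the citric acid cycle as well as the respiratory chain, had 3 lower and a median of −0.34. The complex I assembly factors, which help build the enzyme and are not part of it, had 3 of 7 higher and 2 lower, and a median of −0.03. All 4 complex II genes were higher in cluster 11 than in cluster 1, while ATP synthase had 7 higher, 6 lower and a median of 0.08. Of all genes, 46.2% were higher and 44.2% lower there, and counts this small were not compared with those shares.

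Single genes departed widely from the sum. The ratio between the highest and the lowest germ cell cluster had a median of 3.03 over the 73 genes that reached 20 CPM and ran from 1.37 to 65.82. The highest germ cell cluster was cluster 11 for 27 genes, cluster 6 for 16, cluster 2 for 7 and cluster 9 for 6. The lowest was cluster 1 for 18 genes, cluster 8 for 18 and cluster 9 for 16.

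**Figure D2:**
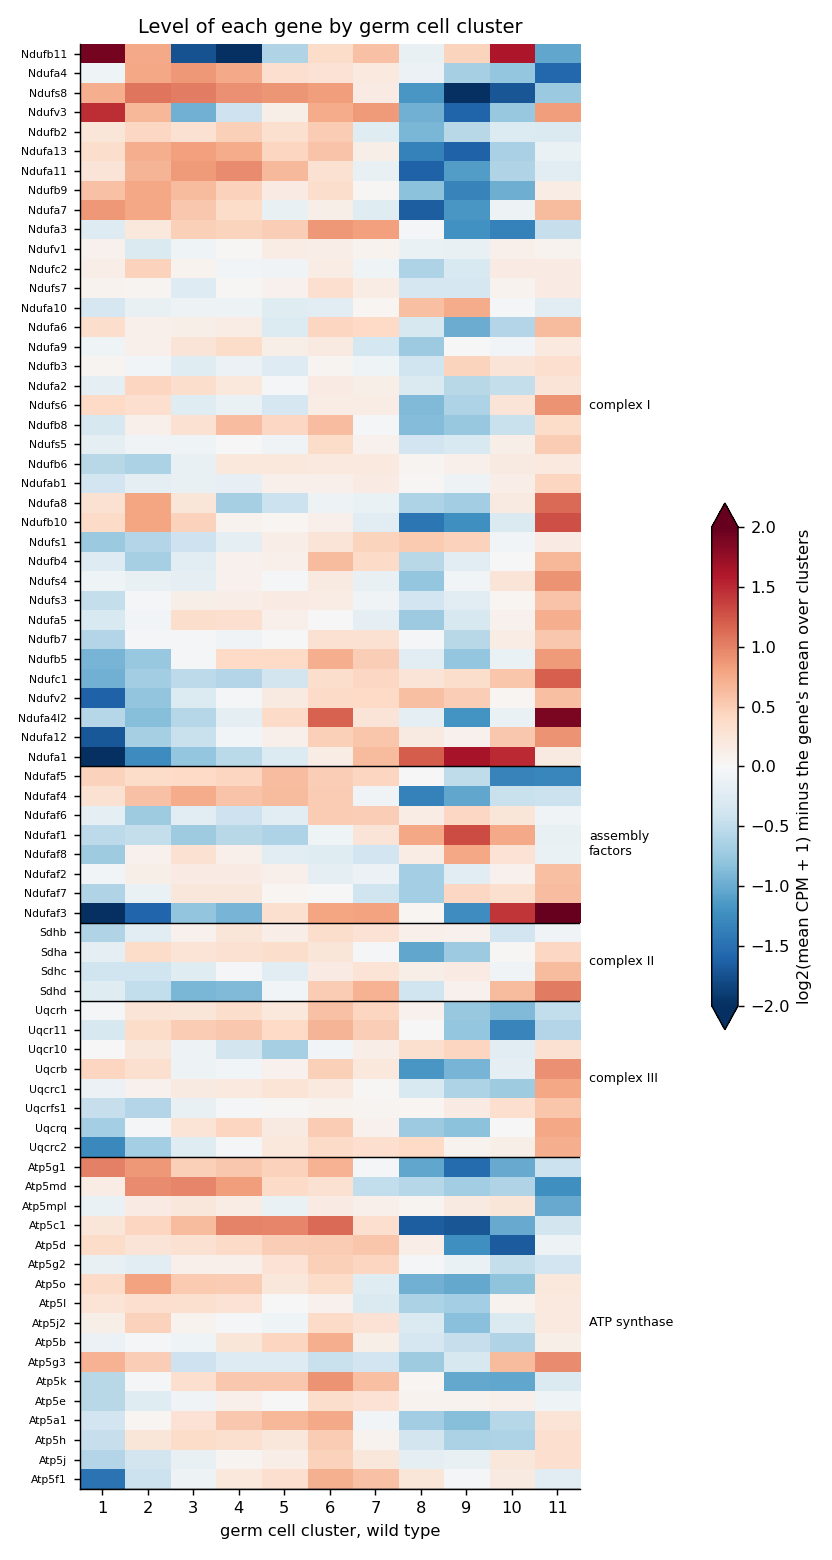
Mean wild-type level of 74 of the genes (rows, by complex) in germ cell clusters 1 to 11 (columns), as the log2 CPM of that gene relative to its own mean over the clusters. Most rows are low in clusters 8 to 10, and rows that go against this include *Ndufa1*, which peaks in cluster 9, and *Ndufb11*, which is low in clusters 4 and 11.

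*Ndufaf3*, an assembly factor that works with *Ndufaf4* on the part of complex I that meets quinone, changed most among these 73. It stood at 7.6 and 4.5 CPM in cluster 1, 63.5 and 57.7 CPM in cluster 6, 18.3 and 9.8 CPM in cluster 9, and 472.4 and 327.1 CPM in cluster 11. Its mean was 65.8-fold higher in cluster 11 than in cluster 1. *Ndufaf4* took the same 3 steps in smaller size, with 61.7 and 61.1 CPM in cluster 1, 69.5 and 72.3 CPM in cluster 6, 20.8 and 26.1 CPM in cluster 9, and 33.6 and 38.9 CPM in cluster 11. Between the first and last clusters alone, the partners had opposite orders.

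The next highest ratios of cluster 11 to cluster 1 were those of 4 complex I genes, X-linked *Ndufa1* (6.35) among them, and of *Uqcrc2*. *Ndufv2*, an iron-sulfur subunit of the NADH-oxidising module, had 106.7 and 109.8 CPM in cluster 1 and 541.3 and 475.1 CPM in cluster 11. *Ndufa12*, an accessory subunit, went from 61.3 and 58.4 CPM to 364.8 and 366.4 CPM. *Ndufc1*, a small membrane subunit, went from 176.9 and 211.7 CPM to 844.9 and 904.9 CPM. The wild-type libraries of the first and last clusters did not overlap for any of these 3, and the mean ratios were 4.70 for *Ndufv2*, 6.11 for *Ndufa12* and 4.50 for *Ndufc1*. *Uqcrc2*, a core protein of complex III, rose from 84.1 and 72.0 CPM to 347.0 and 285.5 CPM, a ratio of 4.05.

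Besides the X-linked *Ndufb11*, the lowest ratios of cluster 11 to cluster 1 were those of *Ndufa4*, *Ndufs8*, *Atp5g1*, *Atp5md* and *Atp5mpl*, from 2.82-fold to 1.83-fold lower. *Ndufa4* carries a complex I name but is now placed in cytochrome *c* oxidase, and it went from 322.7 and 404.7 CPM in cluster 1 to 104.1 and 153.8 CPM in cluster 11. *Ndufs8*, an iron-sulfur core subunit of complex I, went from 254.5 and 254.6 CPM to 97.4 and 85.1 CPM, with its lowest values, 43.4 and 32.3 CPM, in cluster 9. *Atp5g1*, 1 of 3 genes for the same mature *c* subunit of the ATP synthase ring, went from 736.9 and 870.1 CPM to 301.1 and 288.9 CPM. *Atp5md*, a small membrane subunit known for its part in ATP synthase dimers, went from 305.5 and 436.4 CPM to 120.2 and 165.1 CPM. *Atp5mpl*, another small membrane subunit, had means of 517.8 CPM in cluster 1 and 282.7 CPM in cluster 11.

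The 3 *c* subunit genes did not follow one course. *Atp5g1* fell to 145.5 and 127.1 CPM in cluster 9, *Atp5g2* was highest in cluster 6 at 689.2 and 745.0 CPM, and *Atp5g3* was lower in cluster 6, at 138.9 and 154.0 CPM, than in cluster 1, at 308.9 and 339.0 CPM. *Atp5g3* was back at 368.3 and 394.8 CPM in cluster 11. *Atp5b*, the catalytic beta subunit, had 620.4 and 540.2 CPM in cluster 1, 1145.5 and 938.5 CPM in cluster 6, and 514.6 and 396.1 CPM in cluster 9. *Atp5l*, subunit g in the membrane part, had 462.2 and 594.6 CPM in cluster 1 and 250.6 and 293.2 CPM in cluster 9.

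The catalytic and core subunits of complexes I to III differed in where they were highest. *Ndufv1*, which binds NADH, lay between 139.4 and 227.3 CPM over the 11 clusters and both libraries. *Ndufs1*, the largest iron-sulfur subunit, had 75.0 and 63.9 CPM in cluster 1 and 176.0 and 148.4 CPM in cluster 9, where most members were low. In complex II, *Sdha*, the flavoprotein, had 85.9 and 57.6 CPM in cluster 8 and 208.5 and 188.1 CPM in cluster 11. *Sdhb*, the iron-sulfur subunit, had 133.3 and 147.2 CPM in cluster 1 and 274.4 and 269.4 CPM in cluster 6. The membrane anchors *Sdhc* and *Sdhd* were at 185.6 and 171.6 CPM and at 149.2 and 149.9 CPM in cluster 11, against 94.5 and 79.1 CPM and 60.8 and 60.7 CPM in cluster 1. In complex III, *Uqcrc1*, a core protein, had 111.8 and 81.4 CPM in cluster 9 and 310.0 and 200.6 CPM in cluster 11, and *Uqcrfs1*, the Rieske iron-sulfur protein, had 80.7 and 81.3 CPM in cluster 1 and 175.3 and 155.6 CPM in cluster 11.

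Both X-linked members lay apart from the sum. The X chromosome is silenced in pachytene spermatocytes, a known feature of male meiosis. *Ndufa1* (X, 37187588 to 37191163 of GRCm38), an accessory subunit needed for complex I assembly, climbed from 60.0 and 74.4 CPM in cluster 1 to 1069.5 and 1302.6 CPM in cluster 9, and stood at 317.7 and 535.7 CPM in cluster 11. *Ndufb11* (X, 20615326 to 20617619), a subunit of the membrane arm, had 257.9 and 290.4 CPM in cluster 1, 13.2 and 16.5 CPM in cluster 4, 219.0 and 224.6 CPM in cluster 10, and 22.8 and 46.4 CPM in cluster 11. Both fell from cluster 10 to cluster 11 in each library, but between clusters 1 and 9 one rose and the other fell.

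**Figure D3:**
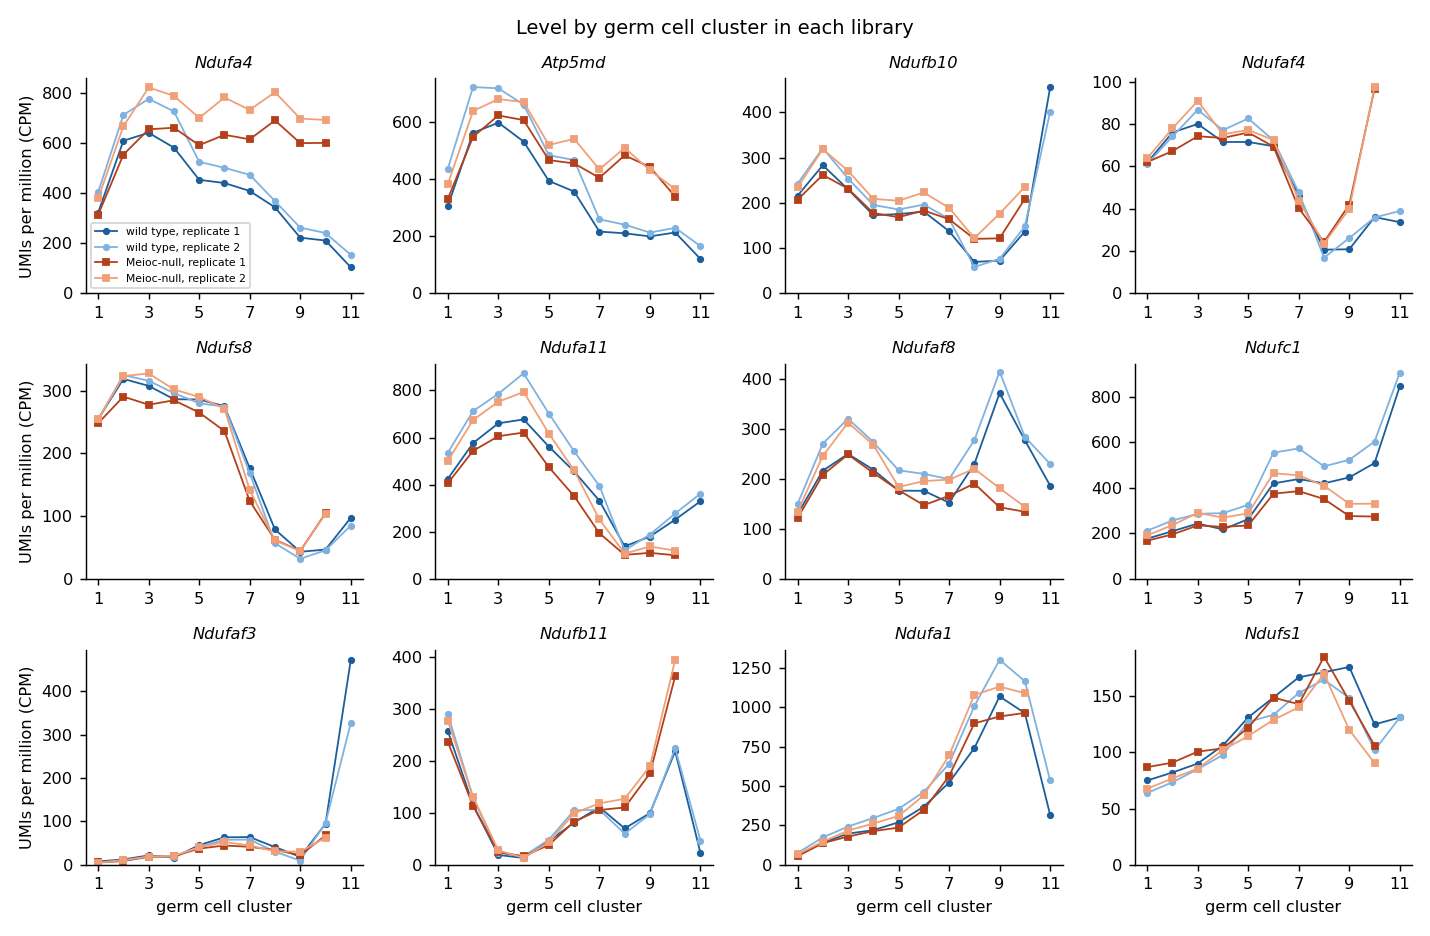
Level in CPM (vertical axis) of 12 members over germ cell clusters 1 to 11 (horizontal axis), with 1 point for each library. *Ndufa4* is at 602.1 and 693.8 CPM in *Meioc*-null cells of cluster 10 and at 211.2 and 241.2 CPM in wild type, and *Ndufaf8* goes the other way.

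The clusters outside the 11 germ cell clusters held these transcripts in unequal shares. The Leydig-like cluster, with 21 to 72 cells in a library, held 2.83% and 2.88% in wild type, and the peritubular myoid-like cluster 1.61% and 1.57%. The Sertoli-like cluster led by *Clu* held 2.08% and 2.12%. The shallower Sertoli-like cluster, led by *1700011M02Rik*, held 2.81% and 3.25%. The unnamed cluster led by *Clec3b* held 1.44% and 1.54%, the lowest of all clusters, and that led by *Gzmc*, where 4 of the 5 germ cell markers passed the detection filter, 2.72% and 3.21%. The highest cluster of all was cluster 11 for 18 genes, the Leydig-like cluster for 14, the shallower Sertoli-like cluster for 12 and cluster 6 for 10. The *Ndufa4* paralogue *Ndufa4l2*, known as a hypoxia-induced gene, did not exceed 10.2 CPM in any germ cell cluster of either genotype.

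Outside the list, 10 genes had the courses most like the summed level across the 11 wild-type clusters, by Pearson correlation of log2 CPM over 3844 genes. They were *Mrps15* (0.965), *Cox5b* (0.948), *Myl6* (0.944), *Dync1li2* (0.936), *Ubl5* (0.936), *Mia2* (0.927), *Mrps23* (0.926), *Nfu1* (0.926), *Tomm6* (0.922) and *Cyc1* (0.918). The 11 points share their libraries, so these values are a description.

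Without *Meioc*, the members differed from wild type in clusters 7 to 10, in both directions, and none was called in clusters 1 to 6 or in the 5 other clusters tested. The Leydig-like cluster held 32 and 50 wild-type and 21 and 72 *Meioc*-null cells. It was not compared, since replicate 1 of each genotype fell under the 50 required in every library. Calls came from edgeR's quasi-likelihood test on UMIs summed per library and cluster (n = 2 per genotype), at a Benjamini-Hochberg adjusted p under 0.05 over all genes tested and a log2 fold change beyond 0.1, the limit of the study. Fold changes are wild type over *Meioc*-null. In clusters 1 to 6, 0 of 73 or 74 members tested were called, beside 0%, 0.0231%, 0.0256%, 0%, 0% and 1.02% of all genes. At an unadjusted p of edgeR under 0.05 the members numbered 0 in clusters 1 to 4, 1 in cluster 5 and 2 in cluster 6. The shares of all genes were 0.968%, 0.682%, 2.33%, 1.83%, 5.26% and 9.63% in clusters 1 to 6. DESeq2 called 0 members in each, and no share of all genes stands beside that count. In the Sertoli-like clusters led by *1700011M02Rik* and *Clu*, the peritubular myoid-like cluster and those led by *Clec3b* and *Gzmc*, 0 were called, beside 0%, 0.0549%, 0.0762%, 0.0226% and 0% of all genes. The unadjusted p of edgeR was under 0.05 for 0 members there, beside 2.36%, 3.88%, 1.62%, 1.88% and 1.44% of all genes. The DESeq2 count was 0 as well, again without a share of all genes. With the littermate pair as a block, 3 members were called in cluster 5 (6.05% of all genes) and 3 in cluster 6 (7.27%): *Ndufa4*, lower in wild type, and *Ndufa11*, higher, in both, with *Ndufa8* higher in cluster 5 and *Ndufaf3* higher in cluster 6. The count in cluster 6 also changed when 1 *Meioc*-null library was left out, and no share of all genes stands beside those fits.

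In cluster 7, 7 of 73 members were higher in wild type and 2 lower, beside 8.49% and 11.3% of all genes, or 12.3% of members against 19.8% of genes. In cluster 8, 6 of 71 were higher and 16 lower (17.7% and 21.2% of all genes, 38.9% in all against 31% of members). In cluster 9, 14 of 71 were higher and 17 lower (24.0% and 24.9%, 48.9% in all against 43.7%). In cluster 10, 14 of 73 were higher and 21 lower (30.8% and 31.2%, 62.0% in all against 47.9%). In this fit the members were called no more often than other genes in any of the 4 clusters. With the pair as a block, 29 of 73 (39.7%) were higher in wild type in cluster 7, beside 19.5% of all genes, and 2 were lower, beside 19.8%. The 31 in all were 42.5% of the members tested, against 39.3% of genes. In cluster 8 the block gave 14 higher and 22 lower, beside 29.9% and 32.6% (36 in all, beside 62.5%). In cluster 9 it called 41 of 71 members (57.7%), beside 3315 of 5845 genes. In cluster 10 it called 48 of 73 (65.8%), beside 4652 of 6575 genes. The number of calls in clusters 7 and 9 changed with the library left out, and no share of all genes stands beside these fits. In these fits 1 genotype has a single library, so the spread comes from the remaining pair alone, and 1 batch lacks its partner. Limiting mitochondrial UMIs to 5% left 0 calls in cluster 7 and 1 in cluster 8, on 21 to 85 and 10 to 18 cells per library. Without this limit 435 to 1103 and 530 to 921 had been used. No share of all genes is given at the limit, so the loss is not read as particular to the members.

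**Figure D4:**
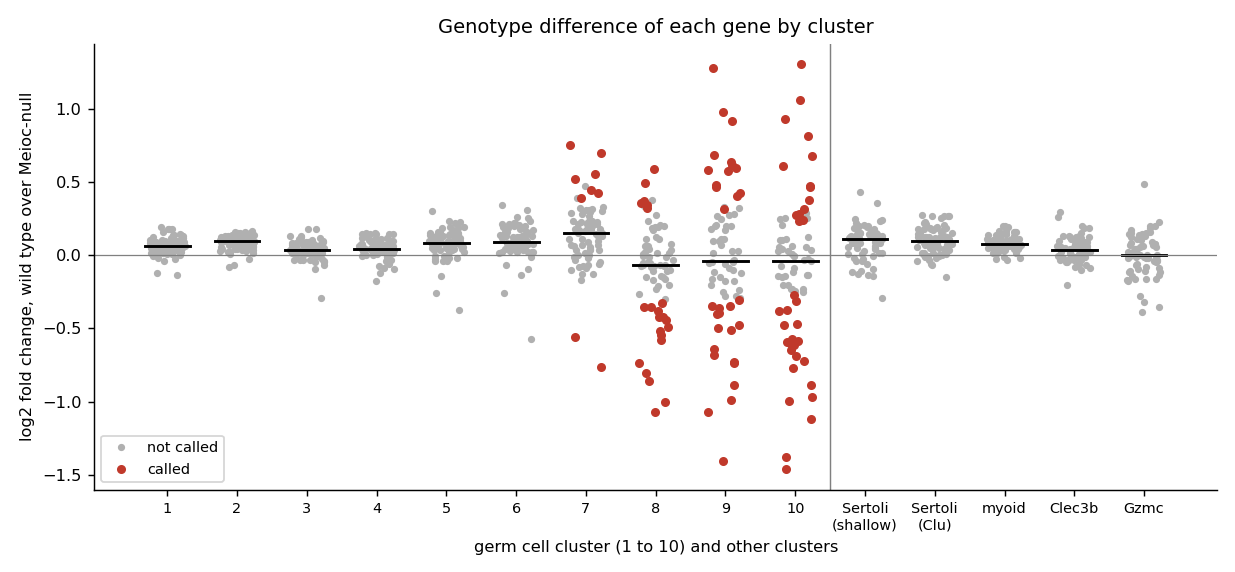
Genotype difference of the members, and those called, in each cluster tested (horizontal axis), from edgeR with 2 libraries per genotype and no block for the pair. No member was called before cluster 7, and in clusters 7 to 10 the share of members called (12.3%, 31%, 43.7% and 47.9%) is below that of all genes (19.8%, 38.9%, 48.9% and 62.0%).

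The median member moved little, and furthest in cluster 7, where it stood at 0.195 and 0.116 within batches 1 and 2. Its log2 fold change was 0.06, 0.10, 0.04, 0.05, 0.08 and 0.09 in clusters 1 to 6, 0.15 in cluster 7, and −0.06, −0.04 and −0.04 in clusters 8 to 10, where the median of all genes was between −0.01 and 0.01 in each. In the summed level the genotypes did not overlap in clusters 8 and 10, where *Meioc*-null cells held 2.00% and 2.11% and then 2.10% and 2.24%, above the wild-type values given for those clusters. The sums overlapped in the other 8 germ cell clusters. Within batch 1, the ratio of wild type to *Meioc*-null was above 1 in 8 of 10 clusters (0.927 to 1.104), and within batch 2 in 6 of 10 (0.89 to 1.042).

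Over clusters 7 to 10, 52 of 73 members tested were called at least once (71.2%), beside 76.3% of 7356 genes, and the other 2 of the 75 passed the detection filter in none of these clusters. Of the 52, 18 were higher in wild type only (24.7% of members, 34.8% of genes) and 29 lower only (39.7% and 33.5%). The other 5 were called both ways (6.85% and 7.98%), among them *Ndufa13*, *Ndufs7*, *Ndufs8* and *Ndufv3*. In clusters 8, 9 and 10 alike, 9 were called (12.3%, against 12.8% of genes). With the littermate pair as a block, 67 were called in at least 1 of the 4 clusters (91.8%, against 88.2% of genes). These were 26 higher only (35.6%, genes 37.2%), 19 lower only (26.0%, genes 34.8%) and 22 both ways (30.1%, genes 16.2%), and 21 were called in clusters 8, 9 and 10 alike (28.8%, genes 22.1%). The comparisons of neighbouring clusters share libraries, so these counts are not independent.

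*Ndufa4* (chromosome 6, 11900292 to 11907497 of GRCm38) had the largest difference. In cluster 10 the wild-type libraries had 211.2 and 241.2 CPM and the *Meioc*-null libraries 602.1 and 693.8 CPM, with no overlap, a log2 fold change of −1.46 ± 0.14 (SE) and an adjusted p of 1.53e-07. In cluster 9 the values were 222.5 and 262.7 against 601.1 and 699.3 CPM (−1.41 ± 0.15, adjusted p = 1.13e-07). In cluster 7 the difference was smaller (409.6 and 474.3 against 616.3 and 734.1 CPM, −0.56 ± 0.16, adjusted p = 0.0207). In cluster 6 the difference was of like size but was not called (441.3 and 502.1 against 634.4 and 783.7 CPM, −0.57 ± 0.19, adjusted p = 0.196). In cluster 5 it was −0.37 ± 0.16 (adjusted p = 0.898), again with no overlap, and in clusters 1 to 4 the genotypes overlapped. *Atp5md* (chromosome 19, 47083464 to 47090647) went with it, at 209.9 and 240.1 CPM in wild type against 483.0 and 509.2 CPM in cluster 8 (−1.07 ± 0.13, adjusted p = 0.000133). Both genes belong to those that fell from cluster 1 to cluster 11 in wild type.

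Further genes lower in wild type included subunits of complex I, described here, beside complex III and ATP synthase genes counted below. *Ndufb10*, a membrane-arm subunit, had 69.3 and 58.0 CPM in wild type against 120.2 and 122.0 CPM in cluster 8 (−0.86 ± 0.11, adjusted p = 0.000254). X-linked *Ndufb11* had 219.0 and 224.6 CPM against 363.8 and 395.1 CPM in cluster 10 (−0.72 ± 0.11, adjusted p = 3e-05), and was lower in wild type in clusters 8 and 9 too (−0.81 and −0.89). *Ndufs8* had 46.9 and 45.7 CPM against 104.8 and 103.8 CPM in cluster 10 (−1.12 ± 0.11, adjusted p = 3.42e-07). Its direction in cluster 7 was the other one, with 176.6 and 168.6 CPM in wild type against 124.1 and 141.8 CPM (0.43 ± 0.11, adjusted p = 0.013). *Ndufv3*, an accessory subunit of the NADH module, turned likewise, from 0.70 in cluster 7 to −0.89 in cluster 10.

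Assembly factors went both ways. *Ndufaf8*, known as a partner of *Ndufaf5*, had 371.6 and 414.7 CPM in wild type against 143.4 and 181.5 CPM in cluster 9 (1.28 ± 0.14, adjusted p = 2.72e-07) and 277.4 and 284.0 against 134.5 and 144.1 CPM in cluster 10 (1.06 ± 0.10). *Ndufaf7*, a methyltransferase needed for complex I assembly, had 90.5 and 73.4 CPM against 45.5 and 37.0 CPM in cluster 9 (0.98 ± 0.16, adjusted p = 3.39e-05). *Ndufaf4* was the reverse in cluster 10, at 36.0 and 35.8 CPM against 96.7 and 97.5 CPM (−1.38 ± 0.12, adjusted p = 6.58e-08). Its partner *Ndufaf3* was higher in wild type there, at 94.6 and 96.2 CPM against 67.6 and 62.6 CPM (0.61 ± 0.11, adjusted p = 0.000131). With the pair as a block, *Ndufaf8* was also higher in cluster 8. Of the assembly factors tested in cluster 10, 4 of 7 were higher and 2 lower, beside 30.8% and 31.2% of all genes.

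Among complex I subunits higher in wild type, *Ndufa11* (chromosome 17, 56717767 to 56722141), an accessory subunit of the membrane arm, led. In cluster 10 it had 251.9 and 278.1 CPM in wild type against 100.7 and 120.4 CPM (1.31 ± 0.12, adjusted p = 1.08e-07), while its cluster 7 values were 332.1 and 394.9 against 194.2 and 252.7 CPM (0.75 ± 0.17, adjusted p = 0.0168). *Ndufc1* had 508.4 and 602.7 CPM against 273.8 and 330.2 CPM in cluster 10 (0.93 ± 0.14, adjusted p = 3.2e-05). *Ndufv2* was also higher there, with 343.4 and 345.2 CPM against 255.0 and 258.8 CPM (0.47 ± 0.11, adjusted p = 0.000968). The wild-type values of all 3 lay above both *Meioc*-null values. With the pair as a block, *Ndufc1* was also higher in clusters 7 and 8, *Ndufv2* in cluster 9 and *Ndufa12* in cluster 7.

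Among the other catalytic and core members, wild type had more *Sdhb* in cluster 9 at 226.7 and 226.4 CPM against 136.2 and 164.0 CPM (0.60 ± 0.13, adjusted p = 0.00066), and *Sdhd* in clusters 7 and 10 (0.52 and 0.28). *Uqcrc1* was higher in clusters 9 and 10 (0.41 and 0.32), and *Ndufv1* in cluster 10 (0.24). *Atp5g1* was lower in wild type in clusters 8, 9 and 10 (−0.38, −0.31 and −0.27), *Atp5g3* in clusters 8 and 9 (−0.73 each) and *Atp5l* in cluster 9 (−0.40). At a mitochondrial limit of 5%, the value of *Atp5g1* in cluster 8 turned to 0.32 (edgeR adjusted p = 0.636), on the 10 to 18 cells per library left there. *Ndufs1*, *Sdha*, *Sdhc*, *Uqcrfs1*, *Atp5b*, *Atp5g2* and *Ndufa1* were called in no cluster. With the pair as a block, *Ndufs1* was higher in wild type in clusters 7, 9 and 10 (0.23, 0.30 and 0.25), *Sdhb* in clusters 8 and 10, and *Atp5g2* and *Ndufa1* in cluster 9, *Atp5g3* was lower in cluster 10, and *Atp5b* was higher in cluster 7 and lower in cluster 10 (0.19 and −0.20). Without the block, the log2 fold changes of those 7 genes in clusters 7 to 10 lay between −0.20 for *Atp5b* and 0.33 for *Atp5g2*.

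By complex, the calls in cluster 10 were 8 higher and 9 lower of 37 tested in complex I, 1 higher and 0 lower of 4 in complex II, 1 higher and 4 lower of 8 in complex III, and 0 higher and 6 lower of 17 in ATP synthase, beside 30.8% higher and 31.2% lower of all genes. Counts this small were not compared with those shares. The median log2 fold change was −0.08 in complex I, 0.13 in complex II, −0.26 in complex III, −0.14 in ATP synthase and 0.38 in the assembly factors.

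Whether the genotype difference itself changed between an early and a late cluster was tested as an interaction, cluster 10 against cluster 2, with edgeR. Each of the 4 libraries gave a sum to both clusters, and the fit had no term for the library. The sums were therefore treated as independent though they share animals, and the p-values may be too small or too large. The interaction was called for 22 of 73 members, 5 with a more positive difference in cluster 10 and 17 with a more negative one. The shares of 6117 genes were 22.0% and 21.8%, and 43.8% in either direction. With the pair as a block 39 were called, beside 58.4% of all genes. The number also changed with the library left out, in fits that hold 1 library in a genotype. The largest were *Ndufa4* (−1.58 ± 0.25, adjusted p = 0.000228), *Ndufaf4* (−1.43 ± 0.17, adjusted p = 3.8e-05) and *Ndufa11* (1.22 ± 0.26, adjusted p = 0.0019). In cluster 2 these 3 had differences of 0.14, 0.07 and 0.11.

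Other measures moved with genotype as well, given here for clusters 8 and 10 alone, and their part in these differences was not tested. In cluster 8, the summed G2/M phase list took 1.14% and 1.23% of wild-type UMIs against 1.84% and 1.83% of *Meioc*-null UMIs, and 37 of its 48 tested genes were lower in wild type. The S phase list went the other way there, at 0.871% in each wild-type library against 0.790% in each *Meioc*-null library, with 12 of 35 genes higher and 4 lower. In cluster 10 both were lower in wild type, S phase at 0.3294% and 0.3213% against 0.5313% and 0.4999% (27 of 34 genes lower, 0 higher) and G2/M phase at 1.136% and 1.145% against 1.777% and 1.762% (35 of 49 lower, 4 higher). Also in cluster 10, the 7 differentiating spermatogonia markers summed to 0.029% and 0.026% in wild type against 0.093% and 0.081%, with 3 of 3 tested lower in wild type and none of the 7 at 0. The 8 pachytene markers summed to 0.079% and 0.069% against 0.028% and 0.029%, with 3 of 4 tested higher, *Mns1* lower and *Ccna1* at 0 in all libraries. Cells of cluster 10 had a median depth of 11497 and 11156 UMIs for wild type, and of 13660 and 16519 for *Meioc*-null.

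Genes of neighbouring pathways were counted from lists in the same way, and in cluster 10 they stand beside 30.8% of all genes higher in wild type and 31.2% lower. Of the nuclear subunits of cytochrome *c* oxidase in cluster 10, 2 of 11 were higher in wild type and 5 lower, and of the mitochondrially encoded subunits *mt-Nd3* alone of 13 was called, higher. All 8 tested carriers of electrons and adenine nucleotides were lower in wild type in cluster 10, with a median log2 fold change of −1.26. They included both cytochrome *c* genes, *Cycs* and the testis form *Cyct*, and the testis ADP/ATP carrier *Slc25a31*. In cluster 7 the carriers went both ways, 2 of 7 higher and 2 lower, and *Cyct* was among the higher ones (1.15, against −0.80 in cluster 10). Of glycolysis, 7 of 9 were lower and *Ldhc*, the testis lactate dehydrogenase, was higher. The tricarboxylic acid cycle had 5 of 17 higher and 4 lower. The regulators of mitochondrial biogenesis in cluster 10 had 1 of 9 higher, *Gabpb1* (0.49), and 2 lower, *Tfam* and *Tfb2m*. In cluster 7, 5 of 9 were lower and 0 higher, beside 11.3% and 8.49% of all genes, and *Gabpb1* was lower in wild type in clusters 7 and 8 (−0.93 and −0.39). *Tfam*, which packages mitochondrial DNA, was lower in clusters 6 to 10.

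The promoters of 3 genes with large differences are shown: 2 that hold the same motif and differ in direction, and 1 without it. RefSeq gave a start for 62 of the 75 members (GRCm38.p6). The 250 bases before each start were searched on both strands, with a match at any listed start counted for the gene, and the 5 motifs are cores without flanking bases. The NRF1 core GCATGCG, of a factor known for driving respiratory genes, was in 9 of 62 members (14.5%) and in 3.43% of 27025 genes with a promoter sequence. The ETS core CCGGAAG was in 12 (19.4%, all genes 7.83%), the E2F core TTCCCGC in 6 (9.68%, 4.38%), the E-box CACGTG in 5 (8.06%, 6.86%) and the YY1 core AAGATGG in 1 (1.61%, 5.18%). Capitals mark the matches. In *Ndufa11* and *Ndufaf4*, 8 capitals hold 2 overlapping NRF1 matches, 1 on each strand.
Ndufa11, chr17:56717512-56717761, + strand: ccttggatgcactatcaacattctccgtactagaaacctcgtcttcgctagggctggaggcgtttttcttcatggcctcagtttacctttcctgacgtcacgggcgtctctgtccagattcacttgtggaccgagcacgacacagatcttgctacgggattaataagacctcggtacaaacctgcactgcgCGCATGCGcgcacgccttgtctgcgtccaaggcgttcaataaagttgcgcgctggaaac
Ndufaf4, chr4:24897833-24898082, + strand: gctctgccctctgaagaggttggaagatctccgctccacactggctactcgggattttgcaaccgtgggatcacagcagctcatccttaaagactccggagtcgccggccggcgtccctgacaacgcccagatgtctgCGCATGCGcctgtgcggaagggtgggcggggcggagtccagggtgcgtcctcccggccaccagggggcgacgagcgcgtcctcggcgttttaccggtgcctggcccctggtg
Ndufaf8, chr11:120098684-120098933, + strand: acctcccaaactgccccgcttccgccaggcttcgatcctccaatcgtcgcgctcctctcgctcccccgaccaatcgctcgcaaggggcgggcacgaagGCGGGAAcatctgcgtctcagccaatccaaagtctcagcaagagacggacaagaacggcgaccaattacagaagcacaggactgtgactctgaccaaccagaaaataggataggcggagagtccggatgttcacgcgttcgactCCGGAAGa

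*Ndufa11*, higher in wild type, and *Ndufaf4*, lower, both hold the NRF1 core, at 59 and 112 bases before the start. *Ndufaf8*, higher in wild type, holds the E2F core in reverse and the ETS core close to its start. Of the 16 members with a promoter that were higher in wild type only, 2 held the NRF1 core, and of the 28 lower only, 5 did. The ETS core was in 5 and 6 of these.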

How the data were processed

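The 4 libraries (2 wild type, 2 *Meioc*-null, grouped by the labels) were 10x Genomics Chromium 3′ libraries. The authors counted UMIs with Cell Ranger 4.0.0 against GRCm38 with GENCODE vM23 and deposited raw counts per gene and barcode, not normalised, after Cell Ranger's cell calling alone. Reads that map to several places are not counted, so members with near-identical copies are uncertain.

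Barcodes with more than 1000 genes and under 10% mitochondrial UMIs were kept, as in the study, and Scrublet's top scores were removed at 0.8% per 1000 barcodes, 690 to 996 per library (its own limit would mark 1.94 to 4.58%). Wild-type cells were clustered (scanpy 1.11.5, 2000 variable genes without members or listed genes, 30 components, 20 neighbours). Each cell of the 4 libraries was given the commonest cluster of its 30 wild-type neighbours, and names came from marker lists. CPM are UMIs scaled to 1000000 per library and cluster, whose sums held 1636258 to 22062359 UMIs in the tested germ cell clusters.

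Genotypes were compared with edgeR 4.0.16 (R 4.3.3, TMM, quasi-likelihood) on summed counts, in clusters with at least 50 cells per library (at least 10 at a 5% mitochondrial limit, an alternative) and genes with a UMI in 25% of cells of either genotype. DESeq2 1.42.0 was an alternative. The SE printed is the absolute log2 fold change divided by the square root of edgeR's F statistic. It restates the test and is not a spread over animals. The protocol in the labels makes each batch a littermate pair, and pups of the same replicate number were taken as that pair. Replicate deviations correlated by 0.23 to 0.65 in 14 clusters and by −0.21 in the *Gzmc* cluster. Pups were separate animals.

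Named genes were the core members, X-linked members, those with a paralogue suffix, the 5 largest calls per cluster that went one way in both batches, and the 6 highest and 6 lowest ratios of cluster 11 to cluster 1. Genes with the most extreme steps, and *Ndufa8*, were named after their values were seen. Members and lists were chosen with earlier results of these data known. Coordinates are from GENCODE vM21. Single values of 1 member are not reported here.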

Additional observations from a re-analysis of the deposited data

Results flagged for a closer look

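The edgeR interaction test, with Benjamini-Hochberg adjustment over 6117 genes, called 22 of 73 members as differing in genotype difference between clusters 2 and 10. It called 43.8% of all genes. Described here are 11 of the 22, taken from the named genes and not by the size of this value. The log2 difference of differences was negative, so that wild type was relatively lower in cluster 10, for *Ndufa4* (−1.58), *Ndufaf4* (−1.43), *Ndufs8* (−1.19), *Ndufv3* (−0.88), *Atp5md* (−0.74), *Ndufb11* (−0.73) and *Ndufb10* (−0.65). It was positive for *Ndufa11* (1.22), *Ndufaf8* (0.95), *Ndufc1* (0.82) and *Ndufaf7* (0.74). Called members outside the named genes included *Ndufa3* (−1.11), *Atp5d* (−1.04) and, on the positive side, *Ndufb3* (0.55). In cluster 2 the genotype differences of the 11 described lay between 0.01 for *Ndufv3* and 0.14 for *Ndufa4* and *Atp5md*.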

How the results depend on the processing

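Of 433 values followed for 35 pairs of a gene and a cluster, 372 kept their direction and their side of the threshold, 60 kept the direction alone, and 1 turned: *Atp5g1* in cluster 8 at a 5% mitochondrial limit (0.32, adjusted p = 0.636). With the replicate block the members called were 3, 3, 31, 36, 41 and 48 for clusters 5, 6, 7, 8, 9 and 10 and 39 for the interaction. Calls that the block added for named genes stand beside them, and it changed no other call of these. Without a filter on detection, 5 were called in cluster 7 and 14 in cluster 8. For alternatives other than the block, DESeq2 among them, no share of all genes is given, so their counts are not read as particular to the members. At the 5% limit, 0 and 1 were called in clusters 7 and 8, which kept 21 to 85 and 10 to 18 cells per library, under the 50 required elsewhere; clusters 9 and 10 and the *Clu* cluster were not fitted because a library held under 10 cells. Leaving out 1 library at a time gave 0 to 6 calls in cluster 6, 3 to 18 for cluster 7, 18 to 35 in cluster 9 and 12 to 23 for the interaction. Median log2 fold changes then ran from −0.07 to 0.24, −0.04 to 0.27, −0.09 to 0.19, −0.08 to 0.20, −0.02 to 0.21, −0.06 to 0.30, 0.02 to 0.26, −0.10 to 0.03, −0.10 to 0.11 and −0.12 to 0.00 in clusters 1 to 10, so their sign turned in clusters 1 to 6, 8 and 9 with the library left out. They ran from −0.02 to 0.24 in the *1700011M02Rik* cluster, −0.13 to 0.23 in the *Clec3b* cluster and −0.08 to 0.15 in the *Gzmc* cluster. The median was 0.01 in cluster 1 at the 5% limit, and 0.21 and 0.07 in the *1700011M02Rik* and *Gzmc* clusters without the detection filter. With mitochondrial genes left out of the total, the wild-type sums were 2.66%, 2.68%, 2.65%, 3.13%, 2.70%, 2.03%, 1.91%, 2.14% and 2.71% in clusters 2, 3, 5, 6, 7, 8, 9, 10 and 11, and 3.06%, 2.30% and 1.66% in the Leydig-like, *Clu* and myoid-like clusters. At the 5% limit they were 2.66%, 1.93%, 2.16% and 2.72% in clusters 2, 8, 10 and 11. Without removal of doublets they were 1.88% in cluster 8 and 2.68%, 2.56%, 1.67%, 1.59% and 2.52% in the Leydig-like, *1700011M02Rik*, myoid-like, *Clec3b* and *Gzmc* clusters. With mitochondrial genes left out, the same member UMIs were divided by a smaller total, and the causes of the other shifts were not tested. With 2 animals per genotype, small differences could not be detected, and the shallow clusters tested fewer members.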
